A study of Saccharomyces cerevisiae with 50 samples.

Results

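The 10 genes of branched-chain amino acid biosynthesis were followed in budding yeast by mRNA sequencing and by Ribo-seq, in which the stretches of mRNA covered by ribosomes (footprints) are sequenced. They were picked by identifier: ILV1 (YER086W), ILV2 (YMR108W), ILV6 (YCL009C), ILV5 (YLR355C), ILV3 (YJR016C), BAT1 (YHR208W), BAT2 (YJR148W), LEU4 (YNL104C), LEU9 (YOR108W) and LEU1 (YGL009C). All 10 were present among the 5743 genes of the mRNA table of the deletion strains, the 5666 of the Ribo-seq table and the 5739 to 5742 of the tables of the Gcn4 strains. All 10 also passed the filter on low counts in every table. LEU2, the next enzyme of the leucine branch, is deleted in the parent strain BY4741 and was therefore followed only as a marker.

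All strains were haploid BY4741 (MATa his3Δ1 leu2Δ0 ura3Δ0), and cells were collected in mid-log phase. By this genotype none should complete leucine synthesis, but LEU2 mRNA was read in PGAL-GST-GCN4, as given below. The labels give rich YPD medium with glucose as the default and name no other medium for any strain, PGAL-GST-GCN4 and wt(ura3) included. The wild type and 5 strains that each lack a single ribosomal protein gene (replaced by kanMX4: Δrpl7a, Δrpl9a, Δrpl6a, Δrpl15b and Δrps27b) also carried met15Δ0. Each was profiled for mRNA and footprints in 3 biological replicates, except for 2 of Δrpl6a footprints. The study describes Δrpl7a and Δrpl9a as long-lived and the other deletions as short-lived. PADH1-GCN4 drives GCN4 from the ADH1 promoter at its own locus (kanMX4-marked), S242L carries that same promoter with a substituted GCN4, and both were compared with wt(met), a wild type with an intact MET15. PGAL-GST-GCN4 carries a GST fusion of GCN4 driven from the galactose-inducible GAL1-10 promoter on the 2μ URA3 plasmid pEGH, its control wt(ura3) carries the 2μ URA3 plasmid pRS426, and both are met15Δ0. These strains were profiled for mRNA in 3 biological replicates each.

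Isoleucine and valine are made by a shared set of mitochondrial enzymes. Ilv1 opens the isoleucine branch from threonine, after which acetolactate synthase (catalytic subunit Ilv2, regulatory subunit Ilv6), the reductoisomerase Ilv5 and the dehydratase Ilv3 act on both branches. Leucine branches off the valine precursor through the isopropylmalate synthases Leu4 and Leu9, the isomerase Leu1 and Leu2. The transaminases Bat1 (mitochondrial) and Bat2 (cytosolic) carry out the last step of all 3 pathways and the first of their breakdown. Transcription is controlled by Gcn4, the activator of amino acid biosynthesis genes, and by Leu3, which is switched on by the intermediate isopropylmalate.

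Because both activators read DNA, the 500 bases before each start codon were searched on both strands for the Gcn4 site TGACTCA, its core TGACTC, and a Leu3 match of 2 CCGG blocks with any 2 bases between them. Coordinates are those of assembly R64, the same sequence as the sacCer3 build named in the submitters' processing notes, and windows were not trimmed where they reach a neighbouring gene. The coding sequences lie at chrV:328477-330207 (ILV1), chrXIII:484084-486147 (ILV2), chrIII:104619-105548 (ILV6), chrXII:838066-839253 (ILV5), chrX:464451-466208 (ILV3), chrVIII:517532-518713 (BAT1), chrX:705744-706874 (BAT2), chrXIV:424895-426754 (LEU4), chrXV:523027-524841 (LEU9) and chrVII:476313-478652 (LEU1). The Gcn4 site was present before 7 of the 10 genes (8 sites in all) and before 4% of 6000 protein-coding genes. The core, which every Gcn4 site contains, was present before 8 of 10 and 12.7% of all. The Leu3 match was present before 4 of 10 and 0.267% of all. The 8 Gcn4 sites are printed on the gene's strand with the site in capitals, because they set apart the members that carry it from ILV1, ILV2 and BAT2, which have none.
LEU4: ttacgtgtaagTGACTCAgttctttcaaa
LEU9: gtcgtagtgaaTGACTCAtatttttccat
LEU1: attactctagaTGACTCAgtttagtctga
BAT1: ttgccttcttaTGACTCAaaattctattg
ILV6: caccgttatcgTGACTCActttctttcgc
ILV3: tcctctccagaTGACTCAgtaatatagta
ILV5 distal: gtggctgtcagTGACTCAtccgcgtttcg
ILV5 proximal: atgacctaactTGACTCAatggcttttac
These stretches lie at chrXIV:426838-426866 (LEU4, minus strand), chrXV:522759-522787 (LEU9, plus strand), chrVII:478936-478964 (LEU1, minus), chrVIII:517350-517378 (BAT1, plus), chrIII:105681-105709 (ILV6, minus), chrX:466326-466354 (ILV3, minus), chrXII:839547-839575 and chrXII:839376-839404 (ILV5, minus). The site's first base stood 101 bases before the start codon in LEU4, 135 in ILV3, 150 in ILV6, 171 in BAT1, 257 in LEU9, 301 in LEU1, and 311 and 140 in ILV5. ILV1 held only the 6-base core.

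The Leu3 matches, with the 10 matched bases in capitals, are shown because they mark 4 members, among them ILV2, which has no Gcn4 match.
ILV2: ccggagcctgCCGGTACCGGcttggcttca
ILV5: gcggtctcctCCGGTACCGGttctgccacc
BAT1: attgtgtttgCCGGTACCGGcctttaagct
LEU1: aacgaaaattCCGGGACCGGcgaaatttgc
They lie at chrXIII:483606-483635 (plus), chrXII:839611-839640 (minus), chrVIII:517375-517404 (plus) and chrVII:478850-478879 (minus), with the first matched base 468, 377, 147 and 217 bases before the start codon. BAT2 held neither motif in this window. A match is a description of the letters and not evidence of binding.

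**Figure D1:**
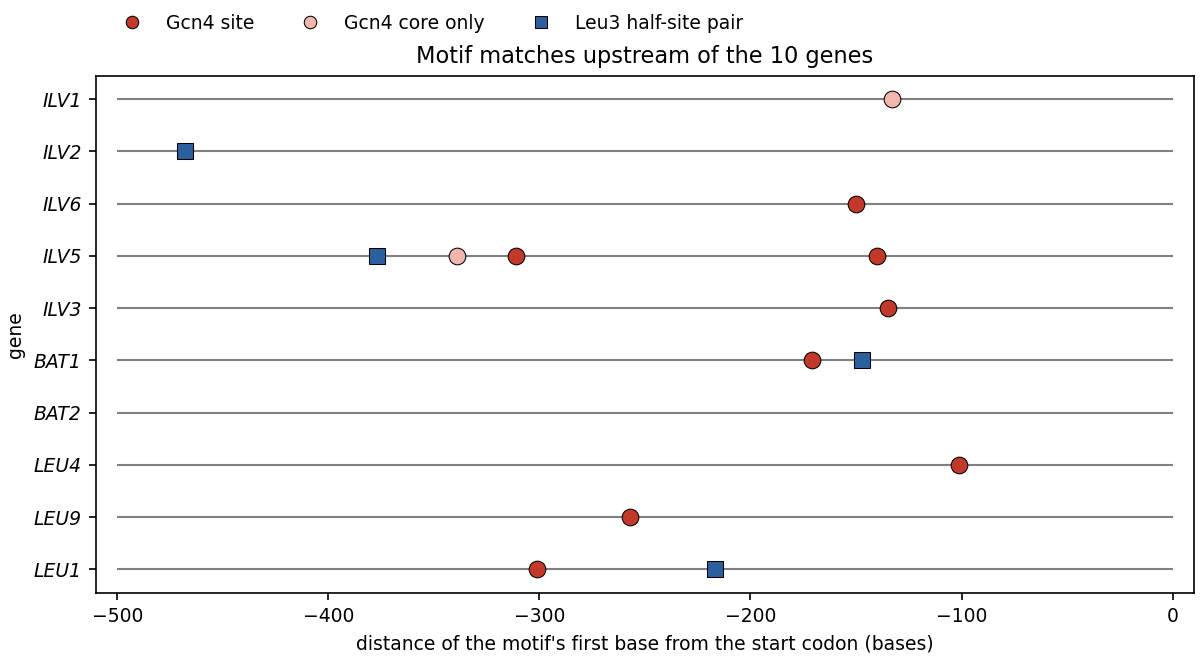
Motif matches in the 500 bases before the start codon of the 10 genes, by distance of the motif's first base from the start codon. Filled red circles are Gcn4 sites (8 in 7 genes), pale circles the Gcn4 core alone and blue squares Leu3 matches (4 genes), and the BAT2 line is empty.

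Total counts per library were 5709195 to 12696200 for mRNA of the deletion set, 8092039 to 15437373 for footprints and 10722664 to 25642672 for the Gcn4 strains, and values are given as CPM (read counts relative to the TMM-scaled library total). mRNA of the 5 deleted genes averaged 60.1 to 2216 CPM in the wild type and 0.545 to 3.90 CPM in the matching deletion strain. RPL15B footprints kept more, at 15.4, 16.5 and 8.70 CPM in Δrpl15b against 78.4, 82.5 and 67.2 in the wild type. Footprints of the other deleted genes read 1.49 to 14.0 CPM in their strains against 1553 to 2227 in the wild type. The source of the remaining reads was not tested. Several libraries departed from their labels or from the rest. MET17, which is also named MET15, read 44.6 ± 6.4 CPM of mRNA and 96.9 ± 2.88 CPM of footprints (SD, n = 3) in Δrps27b, against at most 0.0974 and 0.0938 CPM on average in the other strains of the set, so the deletion and the MET17 genotype cannot be told apart there. In Δrpl6a, the genes of chromosome XII, which holds ILV5, had a median log2 fold change of 0.63 for mRNA and 0.54 for footprints. LEU2 mRNA read 4097, 5307 and 5002 CPM in PGAL-GST-GCN4 and 1.81, 3.37 and 2.83 CPM in wt(ura3). GAL1 read 3575 to 8555 CPM in both of these groups and 2.31 to 4.70 CPM in the wild types of the other sets, and the medium of this pair is not given separately in the labels. Among mRNA libraries of the deletion set, replicate 3 was the highest of its strain for 7 members in all 6 strains. The 6 strains' numbers mark paired samples by the check described in the methods, and values from a fit with the replicate number as a block are given beside mRNA results that they change.

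In the wild type the members spanned a wide range of mRNA per coding length. ILV5 was highest at 1096 ± 145 CPM per kb (SD, n = 3), followed by BAT1 at 697 ± 26.2, LEU1 at 553 ± 33, ILV6 at 503 ± 29 and ILV3 at 421 ± 125. BAT2 (255 ± 36.2) and ILV2 (224 ± 40.1) came next, then ILV1 (149 ± 10.7), LEU9 (120.1 ± 17.7) and LEU4 (112 ± 27.4). Ranges over the 3 libraries overlapped between the neighbours LEU1 and ILV6, ILV6 and ILV3, BAT2 and ILV2, ILV1 and LEU9, and LEU9 and LEU4. Within a library, BAT2 was above ILV2 and ILV1 above LEU9 in 3 of 3, while the other pairs kept the order of their means in 2 of 3. Footprint levels followed another order, led by ILV5 (2609 ± 469 CPM per kb), with BAT2 (499.8 ± 67.2) next and LEU9 (72.1 ± 9.51) lowest. The ratio of mean footprint CPM to mean mRNA CPM was above 1 for ILV5 (2.38), BAT2 (1.96), LEU4, ILV1, ILV2 and ILV3, and below 1 for ILV6, LEU9, BAT1 (0.564) and LEU1 (0.481). LEU4 and LEU9 are 77.8% identical in coding sequence and share 2.56% of LEU4's 28-base windows, while BAT1 and BAT2 are 70.1% identical and share none, so few fragments of footprint length are shared within either pair when uniquely mapped reads are counted.

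The question asked of the deletion strains was whether the pathway changes in mRNA, in ribosome occupancy, or both. Footprints on these genes rose broadly in Δrpl7a, Δrpl9a and Δrpl6a and for part of the pathway in Δrps27b. Without the replicate block, their mRNA moved in both directions or did not pass the test. With the block, members also passed as lower in Δrpl6a and Δrpl15b mRNA, and in both directions in Δrps27b mRNA. A gene passed at an adjusted p below 0.01 (edgeR quasi-likelihood test, Benjamini-Hochberg over all genes tested). In Δrpl7a footprints, 9 of 10 members were higher and BAT2 was lower, where 15.1% higher and 14.9% lower of all 5342 genes passed. In Δrpl9a footprints 7 rose and none fell (10.8% higher and 9.94% lower of all genes), and the counts were the same in Δrpl6a footprints (6.8% higher and 3.41% lower). In Δrps27b footprints 6 were higher and none lower (19.2% higher and 18.3% lower), and in Δrpl15b footprints only LEU4 was higher (1.97% higher and 1.16% lower). The median log2 fold change of the members was 1.13, 0.64, 0.88, 0.51 and -0.04 in that order, beside -0.02 to 0.00 for all genes tested. In footprints no library of Δrpl7a overlapped with the wild type for any of the 10 members, a description that is not set against all genes. The members together took 0.625% to 0.789% of footprint counts in the wild-type libraries, 1.59% to 1.66% in Δrpl7a, 1.07% to 1.17% in Δrpl9a, 1.36% to 1.39% in Δrpl6a, 0.908% to 0.927% in Δrps27b and 0.674% to 0.709% in Δrpl15b.

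For mRNA, 2 members were higher and 2 lower in Δrpl7a, a share close to that of all 5490 genes tested (24.3% higher and 20.5% lower). In Δrpl9a mRNA 2 were higher and 1 lower (11.8% higher and 6.32% lower). None passed in Δrpl6a (8.03% higher and 3.61% lower), Δrpl15b (0.364% higher and 0.291% lower) or Δrps27b (8.29% higher and 5.52% lower). At an unadjusted p below 0.05 the counts in these strains were 1, 1 and 4, where 34%, 13.6% and 36.5% of all genes reached it, and DESeq2 called 0, 0 and 1 member and 16.1%, 2.17% and 18.2% of all genes. The members' median log2 fold change was -0.20, -0.02, 0.04, -0.11 and -0.05 for mRNA of Δrpl7a, Δrpl9a, Δrpl6a, Δrpl15b and Δrps27b, beside 0.00 to 0.03 for all genes. With the replicate block, 3 members rose and 4 fell in Δrpl7a mRNA, where 30% and 27% of all genes rose and fell. In Δrpl9a 3 rose and 1 fell (18.5% and 13.9% of all genes), in Δrpl6a none rose and 2 fell (14.1% and 10.2%), in Δrpl15b none rose and 2 fell (2.22% and 1.17%), and in Δrps27b 3 rose and 2 fell (14% and 11.8%).

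Translation efficiency, the footprint difference minus the mRNA difference in 1 fit of 35 libraries, was tested for the same strains. It was higher for 8 members and lower for none in Δrpl7a, where 14.9% higher and 15.6% lower of 5319 genes passed. It was higher for ILV5, BAT1 and LEU9 in Δrpl9a (6.35% higher and 9.91% lower), for BAT1 and LEU1 in Δrpl6a (1.41% higher and 2.48% lower), for BAT1 in Δrps27b (4.91% higher and 6.69% lower) and for no member in Δrpl15b (0.188% higher and 0.0376% lower), with 1 member at an unadjusted p below 0.05 (10.1% of all genes) and none by DESeq2 (0.395%). The members' median was 1.26 in Δrpl7a, 0.65 in Δrpl9a, 0.85 in Δrpl6a, 0.51 in Δrps27b and 0.12 in Δrpl15b on the log2 scale, beside -0.02 to 0.01 for all genes. With a replicate block within each assay the counts were 9 in Δrpl7a, 7 in Δrpl9a, 7 in Δrpl6a, 4 in Δrps27b and 0 in Δrpl15b, all higher, where 19.4%, 11.7%, 5.21%, 9.14% and 0.263% of all genes were higher in that order. The members added were ILV2 in Δrpl7a, ILV1, ILV6, ILV3 and LEU1 in Δrpl9a, ILV2, ILV5, ILV3, LEU4 and LEU9 in Δrpl6a, and ILV5, ILV3 and LEU9 in Δrps27b. The count in Δrpl9a moved with single libraries: it was 1 without wild-type mRNA replicate 3, Δrpl9a mRNA replicate 1 or 2, or wild-type footprint replicate 1, and 5 without Δrpl9a mRNA replicate 3. The count in Δrpl6a was 1 without its footprint replicate 2, where BAT1 had an adjusted p of 0.011.

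**Figure D2:**
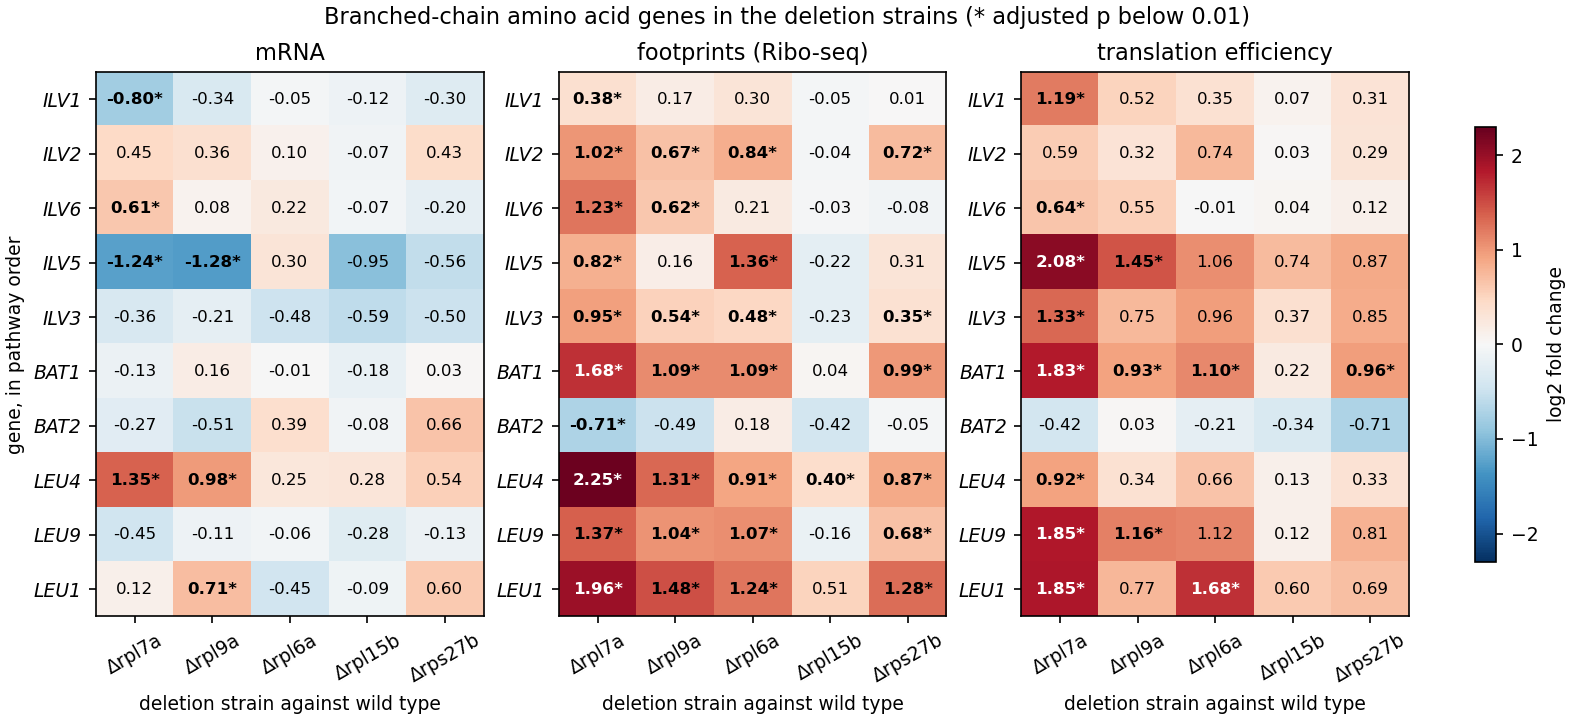
Log2 fold change against the wild type of each member (rows, in pathway order) in each deletion strain (columns) for mRNA, footprints and translation efficiency, red higher and blue lower. Stars mark an adjusted p below 0.01: the footprint panel is red in all rows but BAT2 for Δrpl7a (LEU4 at 2.25, LEU1 at 1.96), the mRNA panel is mixed, and Δrpl15b is pale for footprints.

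**Figure D3:**
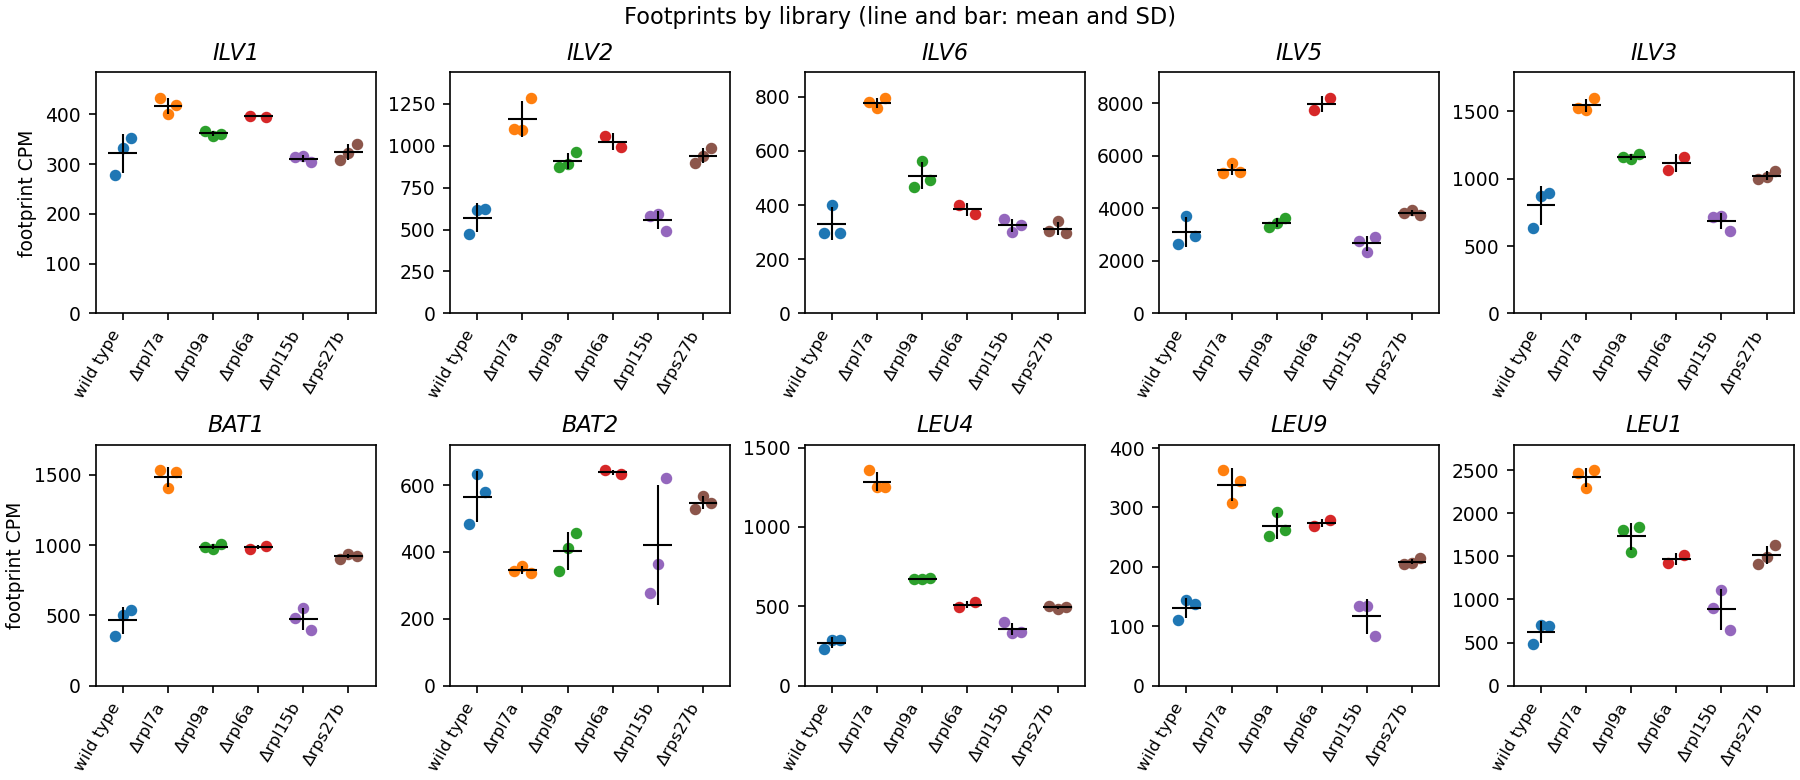
Footprint CPM of each member in every Ribo-seq library of the deletion set (wild type first), each axis starting at 0, with points for libraries and a line and bar for the mean and SD. The Δrpl7a libraries lie above the wild type for 9 members and below it for BAT2.

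At the entry into the isoleucine branch, footprints rose least of the 9 members that rose in Δrpl7a. ILV1, the threonine deaminase, had mRNA of 255, 241 and 278 CPM in wild-type replicates 1 to 3 and 122, 119.5 and 203 CPM in Δrpl7a. All Δrpl7a libraries were below the wild type, with replicate 3 the closest (log2 fold change -0.80 ± 0.18 SE, adjusted p = 0.0011, or 0.015 when only these groups were fitted). Footprints went the other way, from 279, 334 and 353 CPM in the wild type to 433, 401 and 418 in Δrpl7a. That rise was small (0.38 ± 0.08, adjusted p = 0.00056), and translation efficiency was higher by 1.19 ± 0.20 (adjusted p = 2.4e-05). In Δrpl9a and Δrpl6a the footprint libraries also lay above all wild-type libraries, at 367, 357 and 362 and 397 and 396 CPM, but did not pass (adjusted p = 0.098 and 0.018), and without wild-type replicate 3 the Δrpl6a value passed (0.37, adjusted p = 0.0055). Δrpl15b and Δrps27b footprints overlapped with the wild type.

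Both subunits of acetolactate synthase rose in footprints in the long-lived strains. ILV2 footprints were 473, 619 and 624 CPM in the wild type, 1103, 1097 and 1285 in Δrpl7a, 876, 892 and 963 in Δrpl9a, 1061 and 991 in Δrpl6a and 898, 942 and 985 in Δrps27b. These 4 strains lay above the wild type in every library, with log2 fold changes of 1.02 ± 0.10, 0.67 ± 0.10, 0.84 ± 0.11 and 0.72 ± 0.10 (adjusted p = 8.5e-08, 3.5e-05, 7.0e-06 and 4.6e-06). ILV6, the regulatory subunit that confers valine feedback, separated the strains differently. Its footprints were 298, 401 and 296 CPM in the wild type, 782, 757 and 795 in Δrpl7a and 468, 564 and 493 in Δrpl9a (1.23 ± 0.10 and 0.62 ± 0.10, adjusted p = 1.2e-08 and 0.00014). In Δrpl6a (401 and 367 CPM), Δrps27b and Δrpl15b they overlapped with the wild type.

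The mRNA of these subunits was less changed. ILV6 mRNA was 440, 494 and 469.9 CPM in the wild type and 630.5, 769.9 and 748 in Δrpl7a, a rise of 0.61 ± 0.13 (adjusted p = 0.0006), and its translation efficiency in Δrpl7a was higher by 0.64 ± 0.17 (adjusted p = 0.003). That last call was lost without Δrpl7a mRNA replicate 1 or wild-type footprint replicate 1 or 3 (adjusted p = 0.011 to 0.017). ILV2 mRNA was 414, 415 and 558 CPM in the wild type, 531, 564 and 802 in Δrpl7a and 566, 599.7 and 615 in Δrpl9a. Without the block neither passed (0.45 and 0.36, adjusted p = 0.042 and 0.14), and with it ILV2 mRNA passed in Δrpl7a (0.45, adjusted p = 0.00063), Δrpl9a (0.38, 0.0041) and Δrps27b (0.44, 0.0019). ILV2 efficiency passed with the block in Δrpl7a (0.60, adjusted p = 0.00098) and Δrpl6a (0.77, 0.00068), and in Δrpl7a also without the strain's mRNA replicate 3 (0.79, 0.0024).

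ILV5, the reductoisomerase and the most abundant member, had the largest translation efficiency change of the 10 members in Δrpl7a and in Δrpl9a. Its mRNA was 1179, 1227 and 1499 CPM in the wild type, 444, 455 and 749.6 in Δrpl7a and 386, 388 and 828 in Δrpl9a. Every library of both deletion strains was below every wild-type library, and replicate 3 was the highest of each strain. The log2 fold changes were -1.24 ± 0.34 and -1.28 ± 0.34 (adjusted p = 0.005 and 0.0088), the lower mRNA call being lost in Δrpl7a without wild-type replicate 2 or 3 or Δrpl7a replicate 1 or 2 (adjusted p = 0.011 to 0.024) and in Δrpl9a without wild-type replicate 1, 2 or 3 or Δrpl9a replicate 1 or 2 (adjusted p = 0.018 to 0.054). With the block ILV5 mRNA was also lower in Δrpl15b (-0.98, adjusted p = 0.00028) and Δrps27b (-0.64, 0.0012). Footprints were 2649, 3721 and 2926 CPM in the wild type, 5327, 5719 and 5370 in Δrpl7a and 3288, 3458 and 3626 in Δrpl9a. They rose in Δrpl7a (0.82 ± 0.10, adjusted p = 1.3e-06) and overlapped with the wild type in Δrpl9a (0.16 ± 0.10), where the value passed without wild-type replicate 2 (0.31, adjusted p = 0.0069). Translation efficiency was higher by 2.08 ± 0.37 in Δrpl7a and 1.45 ± 0.37 in Δrpl9a (adjusted p = 6.6e-05 and 0.0041), the latter lost without wild-type mRNA replicate 3, Δrpl9a mRNA replicate 1 or 2, or wild-type footprint replicate 1 or 3 (adjusted p = 0.01 to 0.018).

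In Δrpl6a, ILV5 footprints were the highest of any strain at 7753 and 8193 CPM, and mRNA overlapped with the wild type at 1364, 1166 and 2267 CPM. The footprint log2 fold change was 1.36 ± 0.11 (adjusted p = 1.0e-08), beside the chromosome XII median of 0.54, and 0.83 remained after subtracting it. The mRNA value of 0.30 became -0.33 after the same step, beside a chromosome median of 0.63. In the other comparisons the medians of the members' chromosomes lay between -0.13 and 0.10. In Δrps27b the ILV5 footprint value of 0.31 (adjusted p = 0.013) passed without wild-type replicate 2 (0.45, adjusted p = 0.00019) and by DESeq2 (0.31, 0.0081).

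ILV3, the dehydratase of both branches, rose in footprints in 4 strains while its mRNA passed in none without the block. Footprints were 636, 873 and 896 CPM in the wild type, 1524, 1511 and 1599 in Δrpl7a, 1158, 1145 and 1186 in Δrpl9a, 1067 and 1164 in Δrpl6a and 995, 1011 and 1058 in Δrps27b. No library of these strains overlapped with the wild type, and the log2 fold changes were 0.95 ± 0.10, 0.54 ± 0.10, 0.48 ± 0.11 and 0.35 ± 0.10 (adjusted p = 2.1e-07, 0.00029, 0.0034 and 0.0055). The Δrpl6a call was lost without either of its libraries (adjusted p = 0.014 to 0.071), and the Δrps27b call without wild-type replicate 1 or any Δrps27b library (adjusted p = 0.016 to 0.033). ILV3 mRNA was 635, 593 and 992 CPM in the wild type and 459, 481 and 791 in Δrpl7a, with replicate 3 the highest in both. With the block it was lower in Δrpl7a (-0.37, adjusted p = 0.0055), Δrpl6a (-0.50, 0.0015), Δrpl15b (-0.59, 0.0026) and Δrps27b (-0.51, 0.0011), none of which passed without it. Translation efficiency was higher in Δrpl7a (1.33 ± 0.39, adjusted p = 0.0066), a call lost without wild-type mRNA replicate 3, Δrpl7a mRNA replicate 1 or 2, wild-type footprint replicate 1 or any Δrpl7a footprint library (adjusted p = 0.011 to 0.03).

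The transaminase paralogs moved in opposite directions in Δrpl7a footprints. BAT1, the mitochondrial enzyme, had footprints of 354, 501 and 537 CPM in the wild type and 1533, 1405 and 1523 CPM in Δrpl7a, 3.21-fold higher (1.68 ± 0.12, adjusted p = 1.1e-09). In Δrpl9a, Δrpl6a and Δrps27b its footprints were 989, 971 and 1007, 976 and 997 and 905, 938 and 922 CPM. Every one of these libraries was above the wild type, with log2 fold changes of 1.09 ± 0.12, 1.09 ± 0.13 and 0.99 ± 0.12 (adjusted p = 1.0e-06, 2.6e-06 and 8.6e-07). BAT1 mRNA did not pass: it was 792, 825 and 854 CPM in the wild type and 674, 726 and 862 in Δrpl7a, and in all 5 deletion strains it overlapped with the wild type (log2 fold change -0.18 to 0.16). Without the block BAT1 was the only member whose translation efficiency passed in 4 strains, and with it ILV5, ILV3 and LEU9 passed in the same 4. The BAT1 values without the block were 1.83 ± 0.20 in Δrpl7a, 0.93 ± 0.20 in Δrpl9a, 1.10 ± 0.21 in Δrpl6a and 0.96 ± 0.20 in Δrps27b (adjusted p = 1.2e-07, 0.001, 0.0014 and 0.0012).

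BAT2, the cytosolic enzyme, read 483, 632 and 581 CPM of footprints in the wild type and 342, 358 and 337 CPM in Δrpl7a. All Δrpl7a libraries were below the wild type (-0.71 ± 0.18, adjusted p = 0.0039), and the call was lost without wild-type replicate 2 or 3 or any Δrpl7a library (adjusted p = 0.012 to 0.022). In Δrpl9a BAT2 footprints ranged from 343 to 457 CPM over the 3 libraries, again below every wild-type library but without passing (-0.49 ± 0.18, adjusted p = 0.046). Δrpl15b libraries spread widely, at 278, 364 and 623 CPM, and without its replicate 3 the lower value passed (-0.82, adjusted p = 7.3e-05). BAT2 mRNA passed in no deletion strain in the joint fit, with or without the block. Its libraries were 258, 273 and 335 CPM in the wild type and 415, 491 and 463 in Δrps27b, which lay above it in every library (0.66 ± 0.21, adjusted p = 0.031) and passed when only these 2 groups were fitted (0.65, 0.0055). BAT2 translation efficiency passed in none of the 5 strains.

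LEU4 and LEU1 of the leucine branch had the largest footprint rises of the 10 members in Δrpl7a and Δrpl9a. LEU4, the main isopropylmalate synthase, had footprints of 231, 289.7 and 290.5 CPM in the wild type, 1357, 1249 and 1252 in Δrpl7a, 669.8, 669 and 677 in Δrpl9a, 493 and 526 in Δrpl6a and 502, 484 and 497 in Δrps27b. Δrpl7a was 4.76-fold higher than the wild type (2.25 ± 0.09, adjusted p = 2.5e-13), and the other strains followed at 1.31 ± 0.09, 0.91 ± 0.10 and 0.87 ± 0.09 (adjusted p = 1.6e-09, 4.2e-07 and 8.0e-08). LEU4 was also the only member to pass in Δrpl15b footprints (402, 335 and 335 CPM, 0.40 ± 0.09, adjusted p = 0.0064). That call was lost without wild-type replicate 1 or Δrpl15b replicate 1 (adjusted p = 0.029 to 0.05), and the Δrpl15b count was 0 without Δrpl15b replicate 1 and 3 without its replicate 3, where LEU1 was higher (0.69) and BAT2 lower. Without the block LEU4 was the only member whose mRNA rose in both long-lived strains, from 176, 181 and 266 CPM in the wild type to 473, 479.5 and 638 in Δrpl7a and 403, 418 and 406 in Δrpl9a (1.35 ± 0.18 and 0.98 ± 0.18, adjusted p = 1.0e-05 and 0.0006). In Δrps27b its mRNA (297, 286 and 325 CPM) passed with the block (0.56, adjusted p = 0.0013) or without wild-type replicate 3 (0.77, 0.005). Translation efficiency of LEU4 was higher in Δrpl7a (0.92 ± 0.20, adjusted p = 0.00068).

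LEU9, the second isopropylmalate synthase, read 111, 144 and 138 CPM of footprints in the wild type, 362, 307 and 345 in Δrpl7a, 251, 292 and 262 in Δrpl9a, 269 and 278 in Δrpl6a and 206, 207 and 214 in Δrps27b. All 4 strains lay above the wild type (1.37 ± 0.13, 1.04 ± 0.13, 1.07 ± 0.15 and 0.68 ± 0.13, adjusted p = 9.1e-08, 7.7e-06, 1.5e-05 and 0.00028). Unlike LEU4 mRNA, LEU9 mRNA did not rise: it was 198, 201 and 255 CPM in the wild type and 106, 132 and 239 in Δrpl7a. Replicate 3 of Δrpl7a stood apart, and the lower value passed with the block (-0.51, adjusted p = 0.0018) or without that library (-0.90, 0.0014). Translation efficiency was higher by 1.85 ± 0.30 in Δrpl7a and 1.16 ± 0.30 in Δrpl9a (adjusted p = 1.9e-05 and 0.0042), the latter lost without wild-type mRNA replicate 3, Δrpl9a mRNA replicate 1 or 2, wild-type footprint replicate 1 or Δrpl9a footprint replicate 2 (adjusted p = 0.012 to 0.017).

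LEU1, the isomerase that follows, had footprints of 477, 698 and 692 CPM in the wild type, 2465, 2293 and 2498 in Δrpl7a, 1801, 1554 and 1836 in Δrpl9a, 1421 and 1514 in Δrpl6a and 1416, 1497 and 1629 in Δrps27b. The groups did not overlap, and the rises were 1.96 ± 0.15, 1.48 ± 0.15, 1.24 ± 0.16 and 1.28 ± 0.15 (adjusted p = 3.4e-09, 4.5e-07, 8.9e-06 and 5.7e-07). In Δrpl6a the footprints rose while mRNA lay at 782, 798 and 1269 CPM, against 1259, 1240 and 1382 in the wild type, and passed as lower with the block (-0.47, adjusted p = 0.0054) or without Δrpl6a replicate 3 (-0.72, 0.0058). Its translation efficiency there was higher by 1.68 ± 0.26 (adjusted p = 0.00014), and in Δrpl7a by 1.85 ± 0.25 (1.8e-06). LEU1 mRNA rose in Δrpl9a, to 1946, 2054 and 2362 CPM (0.71 ± 0.18, adjusted p = 0.0063). That call was lost without any 1 of the 6 libraries compared (adjusted p = 0.012 to 0.029), as was the ILV5 call without 5 of them, which left LEU4 alone without wild-type replicate 1, 2 or 3 or Δrpl9a replicate 1 or 2. In Δrps27b LEU1 mRNA (1852, 1928 and 2087 CPM) passed with the block (0.60, adjusted p = 0.00091).

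**Figure D4:**
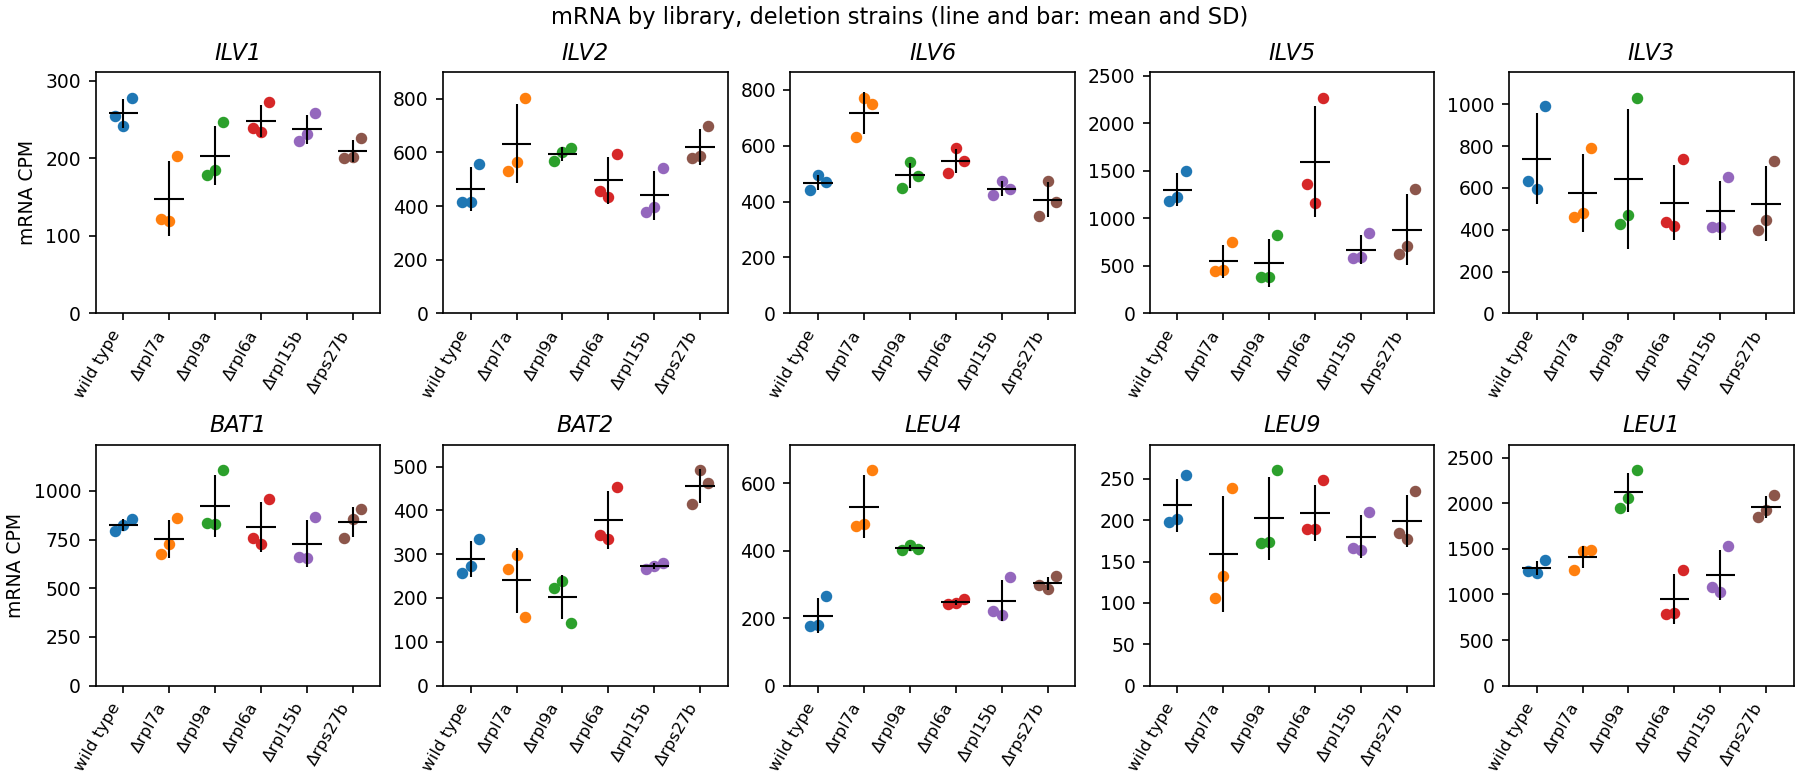
mRNA CPM of each member in every mRNA library of the deletion set (wild type first), each axis starting at 0, with points for libraries in replicate order and a line and bar for the mean and SD. ILV5 lies below the wild type in every Δrpl7a and Δrpl9a library, LEU4 above it, and replicate 3 is the highest library of its strain for 7 members in all 6 strains.

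Because both long-lived strains share their wild-type libraries, their difference was tested directly. Footprints were higher in Δrpl7a than in Δrpl9a for 6 members and lower for none (10.6% higher and 9.79% lower of all genes passed). LEU4 led with 0.94 ± 0.09 (adjusted p = 1.2e-07), followed by ILV5 (0.66 ± 0.10, 3.8e-05), ILV6 (0.61 ± 0.10, 0.00014), BAT1 (0.59 ± 0.12, 0.00072), ILV3 (0.41 ± 0.10, 0.003) and ILV2 (0.35 ± 0.10, 0.0091). The ILV2 call was lost without any 1 of the 6 libraries (adjusted p = 0.013 to 0.061) and the ILV3 call without Δrpl7a replicate 3 or Δrpl9a replicate 1 or 2 (adjusted p = 0.012 to 0.014). LEU1, LEU9 and ILV1 were higher in every Δrpl7a library without passing (0.48, 0.33 and 0.21, adjusted p = 0.015, 0.054 and 0.045), and BAT2 overlapped. For mRNA only ILV6 passed, higher in Δrpl7a by 0.54 ± 0.13 (adjusted p = 0.0075, 4.35% higher and 4.28% lower of all genes), a call lost without any 1 of the 6 libraries (adjusted p = 0.01 to 0.047). With the block ILV6 passed along with ILV1 (-0.47, adjusted p = 0.0031) and LEU1 (-0.58, 0.0012), both lower in Δrpl7a, where 14.3% and 13% of all genes were higher and lower. Without Δrpl7a replicate 3, ILV1 and LEU9 passed as lower (-0.77 and -0.78).

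The Gcn4 strains addressed whether more Gcn4 changes the pathway's mRNA. All 10 members were higher in PADH1-GCN4 than in wt(met), 8 of them more than 2-fold, where 18.1% higher and 15.8% lower of 5547 genes passed. With the 2-fold rule added, 360 of these 5547 genes were higher and 110 lower. LEU4 rose most: its mRNA was 148, 142 and 157 CPM in wt(met) and 1673, 1493 and 1697 CPM in PADH1-GCN4, 10.8-fold higher (3.44 ± 0.10, adjusted p = 4.6e-10). LEU1 mRNA went from 714, 763 and 735 to 3959, 4092 and 4458 CPM (2.49 ± 0.10, 3.7e-09) and LEU9 mRNA from 140.1, 147 and 155 to 369, 317 and 382 CPM (1.26 ± 0.10, 1.8e-06). PADH1-GCN4 and wt(met) libraries did not overlap for any member, a description that is not set against all genes. Of the acetolactate synthase subunits, ILV6 mRNA rose from 599.5, 729.8 and 538 to 4170, 4408 and 5185 CPM (2.87 ± 0.14, adjusted p = 2.4e-08) and ILV2 mRNA from 326, 343 and 325 to 1501, 1354 and 1610 CPM (2.16 ± 0.10, 1.5e-08). BAT1 mRNA rose from 472, 566 and 487 to 2524, 2410 and 2842 CPM (2.34 ± 0.11, adjusted p = 2.2e-08). ILV1 (2.02 ± 0.11, from 190.3, 175 and 199.9 to 834, 664 and 809.6 CPM) and ILV3 (1.58 ± 0.11, from 618, 707 and 626 to 1800, 1902 and 2174 CPM) lay between. The smallest rises were those of BAT2, from 243, 252 and 219 to 322, 359 and 384 CPM (0.57 ± 0.10, 0.00078), and ILV5, from 1206, 1241 and 1316 to 1679, 1645 and 1833 CPM (0.45 ± 0.09, 0.0021). The ILV5 call was lost without wt(met) replicate 1 or PADH1-GCN4 replicate 3 (adjusted p = 0.012 to 0.018). The members together took 0.49% to 0.521% of mRNA counts in wt(met) and 1.92% to 2.1% in PADH1-GCN4, and their median log2 fold change was 2.09 in PADH1-GCN4, 1.45 in S242L and 1.51 in PGAL-GST-GCN4, beside -0.01 to 0.00 for all genes.

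**Figure D5:**
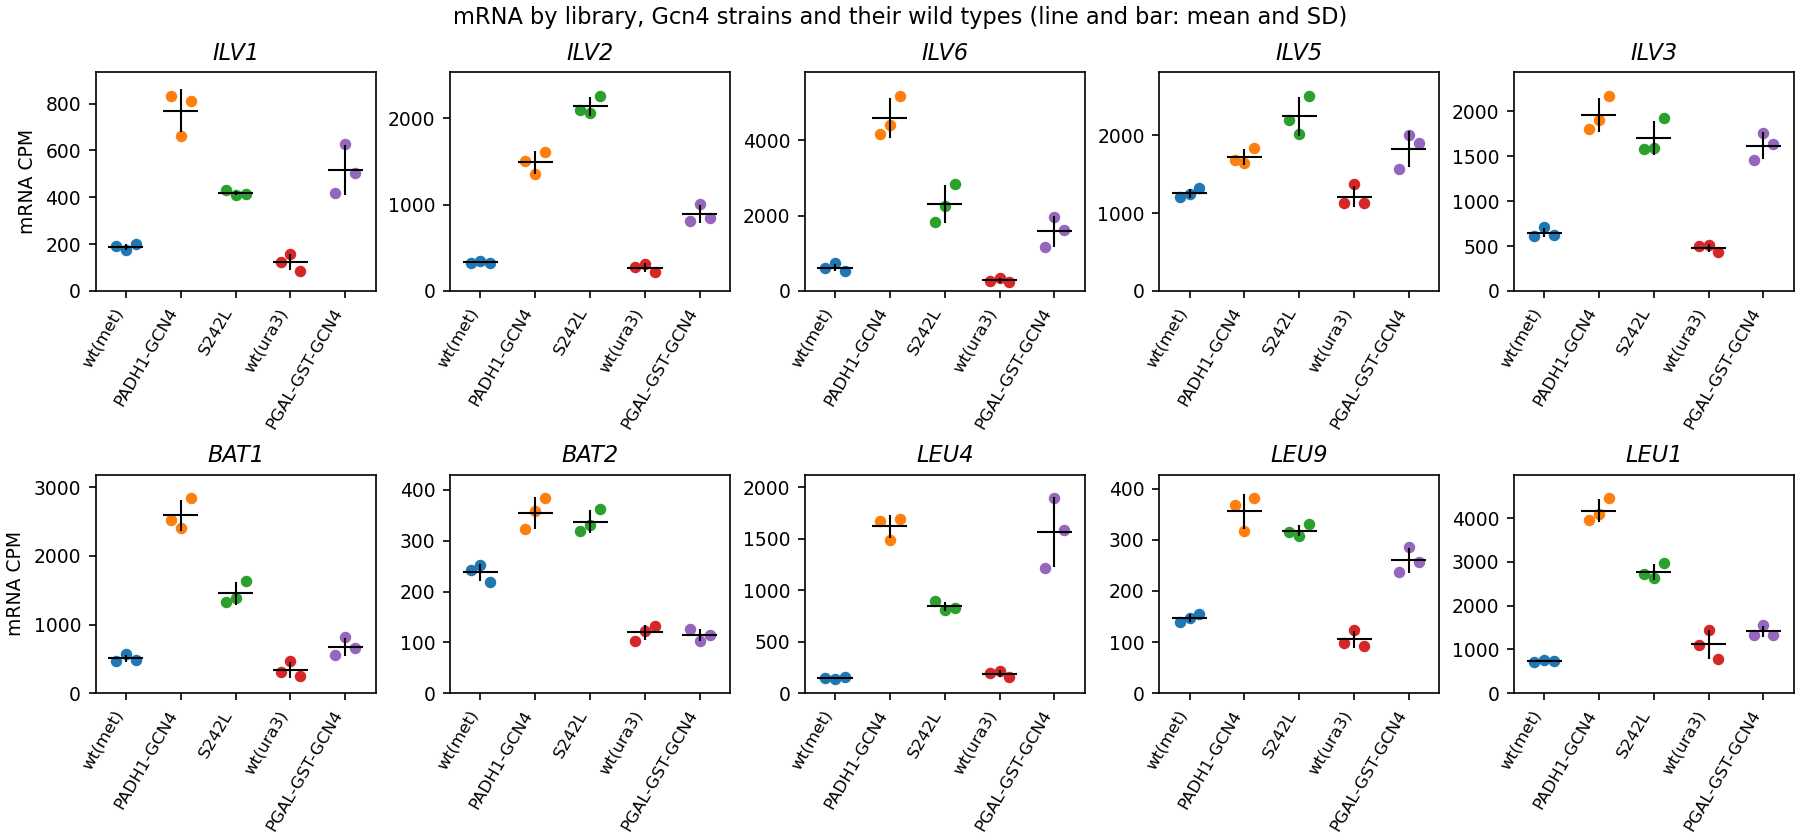
mRNA CPM of each member in every library of wt(met), PADH1-GCN4, S242L, wt(ura3) and PGAL-GST-GCN4, each axis starting at 0, with points for libraries and a line and bar for the mean and SD. PADH1-GCN4 and S242L lie above wt(met) for all 10 members, ILV2 and ILV5 are higher in S242L than in PADH1-GCN4, and BAT2 and LEU1 of PGAL-GST-GCN4 overlap with wt(ura3).

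S242L, deposited in a second table that repeats the wt(met) counts unchanged for all 5742 genes, also had all 10 members higher than wt(met) (8.3% higher and 4.89% lower of 5545 genes passed). Its LEU4 mRNA was 891, 812 and 832 CPM (2.50 ± 0.09, adjusted p = 4.5e-10), ILV2 2098, 2057 and 2261 CPM (2.69 ± 0.09, 3.4e-10) and LEU1 2712, 2629 and 2970 CPM (1.91 ± 0.09, 5.7e-09). The other rises were between 0.50 (BAT2, lost without wt(met) replicate 3, where the adjusted p rounds to 0.01) and 1.89 (ILV6). The S242L libraries come only from that second table, so table and substitution cannot be told apart in any comparison with them. Compared directly, 5 members were higher in PADH1-GCN4 than in S242L and 2 were lower (13.1% higher and 9.67% lower of all genes). The 5 were ILV6 (0.99 ± 0.16, adjusted p = 0.00054), LEU4 (0.94 ± 0.08, 5.4e-06), ILV1 (0.88 ± 0.10, 3.3e-05), BAT1 (0.84 ± 0.11, 0.00013) and LEU1 (0.59 ± 0.09, 0.00031). ILV2 went the other way, at 1501, 1354 and 1610 CPM in PADH1-GCN4 and 2098, 2057 and 2261 in S242L (-0.52 ± 0.09, 0.00069), and so did ILV5, at 1679, 1645 and 1833 and 2196, 2020 and 2506 CPM (-0.38 ± 0.10, 0.0079). The ILV5 difference was lost without any PADH1-GCN4 library or S242L replicate 1 or 3 (adjusted p = 0.014 to 0.028). ILV3, BAT2 and LEU9 overlapped between the strains. GCN4 mRNA itself was 1032 ± 107 CPM in wt(met), 3755 ± 231 in PADH1-GCN4 and 5539 ± 162 in S242L (SD, n = 3).

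In PGAL-GST-GCN4, 6 members were higher than in wt(ura3) and none lower (18.9% higher and 14.7% lower of 5574 genes passed). LEU4 mRNA rose from 199, 215 and 156 to 1216, 1897 and 1582 CPM (3.04 ± 0.25, adjusted p = 1.9e-05), ILV6 mRNA from 253, 357 and 244 to 1156, 1961 and 1625 (2.48 ± 0.27, 0.0001) and ILV1 mRNA from 124, 156 and 87.2 to 419, 628 and 504 (2.08 ± 0.25, 0.00018). ILV3 (1.75 ± 0.20), ILV2 (1.71 ± 0.20) and LEU9 (1.31 ± 0.17) also rose. The remaining 4 did not pass. LEU1, at 1110, 1453 and 775 CPM in wt(ura3) and 1331, 1562 and 1337 in PGAL-GST-GCN4, overlapped (0.34 ± 0.25, adjusted p = 0.29), as did BAT2, at 103, 123 and 132 and 126, 104 and 115 CPM (-0.05 ± 0.15, 0.78). BAT1 mRNA, at 311, 468 and 244 and 550, 816 and 657 CPM, did not overlap (0.98 ± 0.27, 0.013) and passed with the replicate block, in which these libraries pair (1.01, 0.0014), without wt(ura3) replicate 2 (1.28, 0.0028) and by DESeq2. ILV5 (0.59 ± 0.21, 0.043) passed by DESeq2 (0.0037). The strain also differed from its control in LEU2, at 4097 to 5307 CPM against 1.81 to 3.37, so an effect of the tagged Gcn4 and one of a transcribed LEU2 cannot be told apart. The members took 0.329% to 0.535% of counts in wt(ura3) and 0.891% to 1.21% in PGAL-GST-GCN4.

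Genes around the pathway were followed in lists of 5 genes for threonine supply, 4 for regulators and carrier, 4 for import and 7 for use and breakdown. Among the regulators, GCN4 had 35.1 ± 4.39 CPM of footprints in wild-type cells (SD, n = 3), 250.5 ± 5.87 in Δrpl7a and 93.7 ± 2.86 in Δrpl9a (2.84 ± 0.18 and 1.42 ± 0.17, adjusted p = 1.6e-10 and 3.9e-06). GCN4 footprints were 54.7 ± 2.84 CPM in Δrpl6a (SD, n = 2), 24.7 ± 2.36 in Δrps27b and 37.1 ± 15 in Δrpl15b, none of which passed. The difference between Δrpl7a and Δrpl9a was 1.42 ± 0.16 (adjusted p = 2.0e-06), and GCN4 mRNA passed in no deletion strain. LEU3 footprints passed only in Δrpl6a (0.75 ± 0.17, adjusted p = 0.0032), where LEU3 mRNA also rose (1.00 ± 0.12, 1.4e-05). LEU3 lies on chromosome XII, whose medians there were 0.54 and 0.63. OAC1, the mitochondrial carrier that exports isopropylmalate, rose in footprints of 4 strains, most in Δrps27b (2.80 ± 0.17, adjusted p = 7.5e-11), then Δrpl7a (1.73 ± 0.17), Δrpl6a (1.34 ± 0.18) and Δrpl9a (1.31 ± 0.17). GDH1, a glutamate dehydrogenase gene, rose in footprints of all 5 strains, from 0.51 ± 0.09 in Δrpl15b to 1.92 ± 0.09 in Δrpl7a, passed in neither direction in PADH1-GCN4 or S242L, and fell by 1.44 in PGAL-GST-GCN4 mRNA (log2 scale, adjusted p = 0.0007).

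Of the 5 threonine supply genes, HOM3, HOM2 and THR4 rose in Δrpl7a footprints, HOM3 and HOM2 in Δrpl9a, HOM3, HOM2 and THR1 in Δrpl6a, THR1 in Δrps27b and none in Δrpl15b. The shares of all genes higher in these footprints were 15.1%, 10.8%, 6.8%, 19.2% and 1.97% in that order. HOM2, encoding aspartate semialdehyde dehydrogenase, rose by 1.60 ± 0.08 in Δrpl7a footprints and by 0.83 ± 0.15 in mRNA (adjusted p = 4.2e-12 and 0.00025). THR1, the homoserine kinase gene, was lower in Δrpl7a mRNA (-0.77 ± 0.16, adjusted p = 0.00076). HOM3, the aspartate kinase gene at the head of the pathway, rose by 1.41 ± 0.09 in Δrpl7a footprints without an mRNA change that passed (0.22). In mRNA of all 3 Gcn4 strains 4 of the 5 rose, HOM3, HOM2, THR1 and THR4, with HOM2 at 2.93 in PADH1-GCN4, 2.14 in S242L and 3.05 in PGAL-GST-GCN4. Of all genes, 18.1%, 8.3% and 18.9% were higher in these strains. HOM6, homoserine dehydrogenase, passed only in Δrps27b mRNA (0.50). Of the 4 import genes, the branched-chain permease genes BAP2 and BAP3 rose in footprints of Δrpl7a (0.72 and 0.88) and Δrpl9a (0.44 and 0.37), in Δrpl7a mRNA and in all 3 Gcn4 strains. GAP1, the general amino acid permease, rose in Δrpl7a mRNA (3.38 ± 0.53, adjusted p = 6.0e-05) while its translation efficiency fell there by 3.27 on the log2 scale. Of the 7 use and breakdown genes, 1 rose and 1 fell in Δrpl7a footprints, close to the shares of all genes (15.1% higher and 14.9% lower). In Δrpl9a footprints 2 of the 7 rose, beside 10.8% of all genes. ARO10, a decarboxylase of the breakdown route, rose in footprints of Δrpl7a (3.68), Δrpl9a (3.32) and Δrps27b (2.85). CHA1, a catabolic serine and threonine deaminase that uses the same substrate as Ilv1, was lower in mRNA of PADH1-GCN4 (-2.03 ± 0.10), PGAL-GST-GCN4 (-1.97 ± 0.40) and, to a smaller extent, S242L, all past the threshold, and PADH1-GCN4 was lower than S242L in the direct test (-1.02 ± 0.10, adjusted p = 9.6e-06). In the deletion strains CHA1 rose in Δrpl6a mRNA (1.58 ± 0.27, adjusted p = 0.00042) and in Δrpl9a footprints (0.53 ± 0.11, 0.0013).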

How the data were processed

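mRNA and footprint libraries were analysed as 50 samples in 17 groups taken from the labels. The values used are raw counts per gene that the authors deposited: per the study's methods, adapters were trimmed with the FASTX toolkit, reads were aligned to yeast transcripts with segemehl, uniquely mapped reads were counted, and footprints were counted only within coding regions and for read lengths with codon periodicity. The submitters' processing notes name the sacCer3 build and DESeq2. The authors' tables of fold changes and p-values were not used, and 0 per-sample columns were left unmapped.

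Counts were tested with edgeR 4.0.16 in R 4.3.3 (quasi-likelihood test, two-sided, TMM scaling, filterByExpr) on each whole table, with Benjamini-Hochberg adjustment over all genes tested. The deletion strains were fitted together (18 mRNA and 17 footprint libraries, and all 35 for translation efficiency, where the Δrpl6a footprint group has 2), S242L together with PADH1-GCN4 and wt(met) (9 libraries, the wt(met) counts being identical in both tables), and each other pair alone. Passing required an adjusted p below 0.01. As a stricter rule, a change over 2-fold was also asked for. CPM values are scaled by TMM, and levels between genes are per kb of coding length. Total counts per library were 5709195 to 25642672, and their precision enters each test through its SE. No 2 replicates agreed within sampling noise. The code was tested on simulated data.

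Same-numbered libraries deviated together in every pair of mRNA groups of the deletion set (correlation of deviations from the group means 0.145 to 0.671) and in PGAL-GST-GCN4 with wt(ura3) (0.367 to 0.447), so their numbers were taken to pair them. The pairing rests on these correlations, since the labels give only the number. Alternatives were median-of-ratios scaling, no filter, DESeq2 1.42.0, a replicate block, other thresholds, only the groups compared, omission of chromosomes XI and XII and omission of each library. The 10 members were found by identifier and are all named, and the 20 other pathway genes come from fixed lists, with values for those that pass in at least 2 comparisons or on which a statement turns. Members and lists were chosen with earlier results of these data known. Of 5743 identifiers, 5741 matched RefSeq, which supplied the sequences (assembly R64). The study's methods describe the libraries of each strain as biological replicates.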

Additional observations from a re-analysis of the deposited data

Results flagged for a closer look

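Footprints of 6 members differed between Δrpl7a and Δrpl9a in the direct test of that difference, by 0.35 for ILV2, 0.61 for ILV6, 0.66 for ILV5, 0.41 for ILV3, 0.59 for BAT1 and 0.94 for LEU4 (log2, higher in Δrpl7a, edgeR). Libraries of the 2 strains did not overlap for 9 of the 10 members, these 6 included, a description that is not set against all genes. GCN4 footprints differed in the same contrast by 1.42, and whether the values are related was not tested. For mRNA the difference passed for ILV6 alone, at 0.54, and was lost when any 1 of the 6 libraries was left out.

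LEU2, which the labels give as deleted, averaged 4802 CPM in the PGAL-GST-GCN4 libraries and 2.67 CPM in wt(ura3). It is a signal outside the measurements compared, from a gene of the same pathway, and lies above its control in 3 of 3 libraries. The source of these reads was not tested.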

How the results depend on the processing

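Median-of-ratios scaling, omission of the filter on low counts and omission of chromosomes XI and XII kept the number of members passing within 1.5 times in all comparisons to which they apply, and no member reversed direction past the threshold under any alternative. With a fold change over 2 the counts were 2 (Δrpl7a) and 1 (Δrpl9a) for mRNA, 6 (Δrpl7a), 4 (Δrpl9a), 4 (Δrpl6a), 0 (Δrpl15b) and 1 (Δrps27b) for footprints, 0 for Δrps27b translation efficiency, 0 and 0 for Δrpl7a against Δrpl9a in mRNA and footprints, and 0 for PADH1-GCN4 against S242L, since this rule is stricter by construction. Over all genes by this rule, 678 were higher and 349 lower in Δrpl7a mRNA, and 372 and 65 in Δrpl9a mRNA (of 5490). For footprints (of 5342) these were 196 and 116 in Δrpl7a, 73 and 111 in Δrpl9a and 116 and 40 in Δrpl6a. They were 48 and 26 in Δrpl15b and 189 and 291 in Δrps27b, and 84 and 236 for Δrps27b translation efficiency (of 5319). Δrpl7a against Δrpl9a gave 80 and 49 (mRNA) and 105 and 25 (footprints), and PADH1-GCN4 against S242L 159 and 34. At an adjusted p below 0.05 they were 3 for Δrps27b mRNA, 2 for Δrpl15b footprints, 6, 5 and 3 for translation efficiency of Δrpl9a, Δrpl6a and Δrps27b, and 2 for Δrpl7a against Δrpl9a mRNA. DESeq2 gave 1 for Δrps27b mRNA and 2 for Δrpl7a against Δrpl9a mRNA. Fitting only the groups compared gave 2 for Δrps27b mRNA, 0 for Δrpl7a against Δrpl9a mRNA and 0 for Δrpl15b footprints. It also lost ILV1 in Δrpl7a mRNA, ILV5 in Δrpl9a mRNA and ILV3 in footprints of Δrpl6a and Δrps27b. The cause was not tested. Counts at the other settings in this paragraph cover the members only and are not set against all genes.

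With the replicate block the counts were 7, 2, 2 and 5 for mRNA of Δrpl7a, Δrpl6a, Δrpl15b and Δrps27b, 3 for Δrpl7a against Δrpl9a mRNA, 0 for Δrpl15b footprints, and 7, 7 and 4 for translation efficiency of Δrpl9a, Δrpl6a and Δrps27b. Footprint libraries did not pair (correlations -0.205 to 0.159), nor did PADH1-GCN4 with wt(met) (-0.264 to 0.357), where blocking left all 10 members past the threshold. Leaving out 1 library gave 1 to 2 for Δrpl9a mRNA, 0 to 1 for Δrps27b and for Δrpl6a mRNA, 0 to 2 for Δrpl7a against Δrpl9a mRNA, 0 to 3 for Δrpl15b footprints, 1 to 5 for Δrpl9a and 1 to 2 for Δrpl6a translation efficiency. ILV5 in Δrpl6a went from 0.30 to -0.33 in mRNA and from 1.36 to 0.83 in footprints once the chromosome XII median was subtracted.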

Other observations

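Of the 7 use and breakdown genes, 2 rose and 2 fell in Δrpl7a mRNA, beside 24.3% higher and 20.5% lower of all genes. In Δrpl9a mRNA 1 rose and 1 fell (11.8% and 6.32% of all genes). In PADH1-GCN4 2 rose and 1 fell (18.1% and 15.8%), and in S242L also 2 and 1 (8.3% and 4.89%). In PGAL-GST-GCN4 4 rose and 1 fell (18.9% and 14.7%). PDC6, a minor pyruvate decarboxylase gene, rose in Δrpl7a mRNA (2.70 ± 0.46, adjusted p = 0.00013 by edgeR) and in PGAL-GST-GCN4 (2.54 ± 0.34, 0.00032), while its translation efficiency in Δrpl7a was -2.92 ± 0.76 (0.0028). THI3, a regulator of thiamine genes related to the decarboxylases, was lower in mRNA of Δrpl7a (-0.41) and Δrpl9a (-0.40) and higher in PADH1-GCN4 (0.46) and PGAL-GST-GCN4 (0.80), all past the threshold. ECM31, which takes a valine precursor into pantothenate synthesis, rose in all 3 Gcn4 strains (0.83 in PADH1-GCN4, 0.92 in S242L and 1.08 in PGAL-GST-GCN4) and passed in no deletion strain. PAN6 of the same route was lower in Δrpl7a mRNA (-0.40) with a higher translation efficiency (0.50). The permease gene TAT1 passed only in PGAL-GST-GCN4, where it was lower (-1.36), while GAP1 rose in PADH1-GCN4 (1.33), S242L (1.09) and PGAL-GST-GCN4 (1.95).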
